A study of Mus musculus with 30 samples.

Results

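The comparison described here is between microglia of Atg7 knockout and wild-type mice on day 35 of experimental autoimmune encephalomyelitis (EAE), a mouse model of autoimmune demyelination. Its members were chosen by title: 4 libraries titled day 35 EAE Atg7 KO and 4 titled day 35 EAE Atg7 Wt, 8 of the 30 libraries of the series. The other libraries came from naive mice and from day 21 of EAE, and from old mice without and with EAE.

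All groups were C57BL/6 mice, and the 8 libraries came from young ones. Knockout mice were Atg7fl/fl Cx3cr1CreERT and wild-type mice Atg7wt/wt Cx3cr1CreERT2, so both carried a Cre allele at Cx3cr1 and both received tamoxifen, 3 doses of 4 mg at intervals of 48 h. EAE was induced at least 18 days later with recombinant mouse myelin oligodendrocyte glycoprotein, residues 1 to 125, and pertussis toxin. Cells of the central nervous system were sorted as live CD11b+ CD45Int Ly6G- cells and/or by eYFP, and lysates of females and males were pooled at equal parts. In the authors' library names, knockout 2 has 1 number and each other library of the 8 has 2, with no number in common. Cx3cr1 is also active in other myeloid cells, the deleted Atg7 exon is not named in the labels, and nothing says which pools came from separate mice. The p-values therefore measure only the spread between these libraries, which may be partly technical. Day 35 wild type 3 carries a wild-type title and, in another label, a knockout status; the authors' sample table lists it as wild type, and it was kept there.

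Atg7 is the E1-like enzyme of autophagy. It activates the ubiquitin-like proteins of the Atg8 family (LC3 and GABARAP) and Atg12, whose conjugation builds the autophagosome, and cargo receptors such as p62 (Sqstm1) are themselves degraded with their cargo. Microglia are macrophages that reside in brain and spinal cord. In demyelination they take up lipid-rich myelin, and many of them lose homeostatic transcripts such as P2ry12 and gain a disease-associated set that includes Apoe, Lpl, Igf1 and Csf1.

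Total counts were between 6286950 and 7372295 in the 8 libraries. Wild type 2 had the lowest total and 15932 genes detected, the lowest of all 30 libraries. The other wild-type libraries had 18228 to 18894 genes detected. The EAE score that the authors list for each pool was 2.75, 2.75, 3 and 2.5 in the knockout libraries and 1.5, 1, 1.5 and 1 in the wild-type libraries (mean 2.75 ± 0.20 against 1.25 ± 0.29, SD, n = 4 each; two-sided exact permutation p = 0.0286, the smallest that 4 against 4 allows). Every knockout pool thus came from more severely affected mice than every wild-type pool, and disease score and genotype cannot be told apart in any result below. The mitochondrial share of counts was 7.98% ± 0.78 in the knockout and 5.33% ± 0.74 in the wild-type libraries, without overlap (exact permutation p = 0.0286, 0.114 after adjustment over 5 library measures). Several mitochondrial genes had almost no counts (below), so this share does not cover them. By principal components over the 8 libraries, the first of which held 43.2% of the variance, knockout 1, 2 and 4 lay at -33.7, -26.3 and -66.2 and the wild-type libraries between 12.3 and 55.5. Knockout 3, at 7.15, lay nearest to the wild-type side, and wild type 2, at 55.5, lay furthest from the knockout libraries.

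Summed markers of several other cells also moved with the groups, in part through single genes. Microglial markers were the most abundant list in every library, with a summed level of 17530 to 27340 normalised counts scaled to library size (CPM) in the knockout and 21370 to 32540 in the wild-type libraries. The 14 monocyte markers summed to 986 to 1437 CPM in the knockout and 112.7 to 317.1 in the wild-type libraries, mainly through Fn1, the fibronectin gene, at 995 ± 72.5 against 164.5 ± 60.8 CPM. Fn1 made up most of the sum in every library, and without it the sums overlapped between the groups. Of the 14 markers, 2 were higher in every knockout library than in every wild-type library, beside 7.53% of all genes tested. The log2 fold change was above 0 for 12 and below 0 for 2, with a median of 1.45. The 16 neutrophil markers summed to 672 to 4048 against 599 to 824 CPM. Most of the wild-type level was Csf3r, the G-CSF receptor, which microglia also express, and without it the other 15 summed to 648, 599, 123 and 3505 CPM in the knockout and 52.9, 53.4, 4.54 and 18.3 in the wild-type libraries. Knockout 4 stood apart with the highest neutrophil, erythroid, neuron, astrocyte and oligodendrocyte sums, although the Ly6G- gate is meant to remove neutrophils. Erythroid markers summed to 58.1 to 222 against 14.3 to 45.7 CPM, astrocyte markers to 329.4 to 530 against 214 to 359 and oligodendrocyte markers to 180 to 441 against 90.4 to 260.5. Neuron markers ranged over 10.8 to 472 against 6.39 to 100 CPM, and endothelial and mural markers over 86.4 to 94.3 against 56.8 to 60.5. The endothelial and mural difference came through Flt1, at 45.9 ± 2.61 against 11.6 ± 3.49 CPM, and without Flt1 the sums overlapped. Of the 6 such markers tested, 4 had a log2 fold change above 0 and 2 below. T and NK cell markers were near 0 in both groups (2.54 to 9.31 and 3.29 to 7.30 CPM, with Gzma and Ncr1 at 0 in the knockout and Cd3d and Klrb1c at 0 in the wild-type libraries), and border-associated macrophage markers overlapped (652 to 734 and 600.5 to 727 CPM). The summed dendritic cell markers were lower in every knockout library (194 to 235 against 258 to 366.5 CPM), but most single markers were not. Of the 9 tested, 7 had a log2 fold change above 0 and 2 below, with a median of 0.64. The part of these cells in the results below was not tested. In bulk libraries a higher level of a transcript in microglia and a larger share of cells that hold it cannot be told apart.

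**Figure D1:**
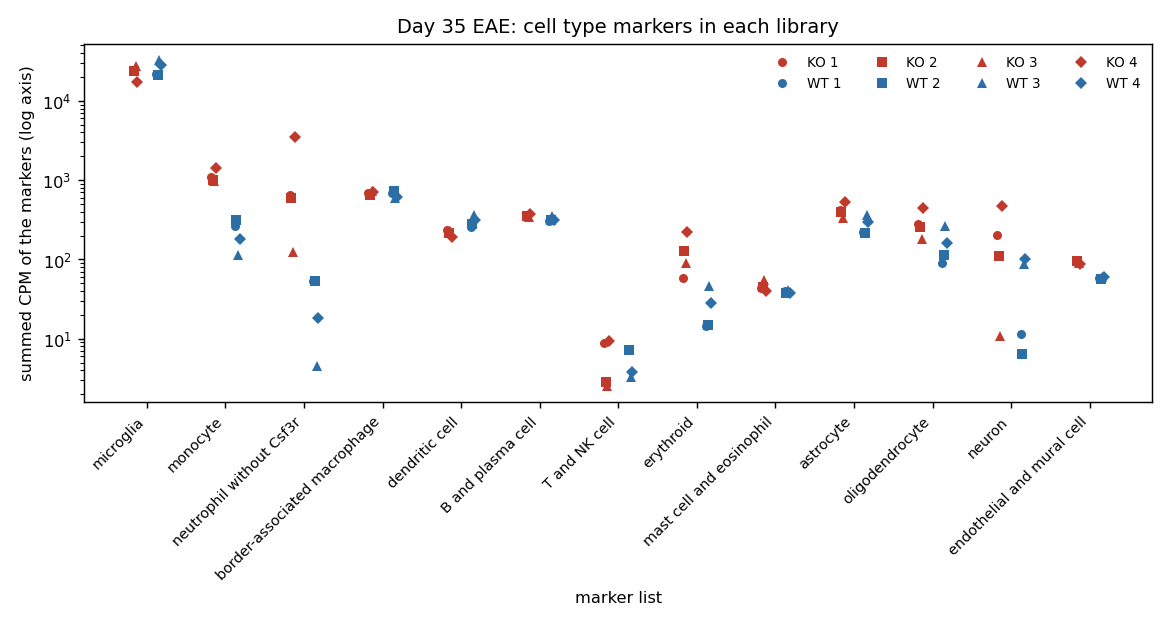
Summed CPM of the markers of 13 cell types (logarithmic vertical axis) in each of the 4 knockout (red) and 4 wild-type (blue) libraries of day 35; each symbol is 1 library. Monocyte, erythroid and neutrophil sums (the latter without Csf3r) were higher in every knockout library than in every wild-type library. Fn1 made up most of the monocyte sum in every library, and without it the monocyte sums overlapped. Knockout 4 was the highest for neutrophil markers at 3505 CPM.

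Atg7 itself, read first as the targeted gene, was not lower in the libraries titled knockout. Its level was 33.3, 32.5, 30.3 and 33.8 CPM in the knockout and 23.7, 21.3, 23.8 and 21.4 CPM in the wild-type libraries. Every knockout library was above every wild-type library, but the difference did not pass the test in the fit of all 30 libraries (log2 fold change 0.53 ± 0.30, SE, adjusted p = 0.338). In a fit of the 8 libraries alone, Atg7 was called higher in the knockout (adjusted p = 0.0107), and in no fit without 1 library. All adjusted p-values here are from edgeR's quasi-likelihood test with Benjamini-Hochberg adjustment over all genes tested. A deletion of 1 exon need not lower a count over the whole gene, so this level checks neither the deletion nor the label of wild type 3, which at 23.8 CPM lay within the wild-type range. Cx3cr1, which encodes the receptor for CX3CL1 and carries the Cre, overlapped between the groups (651, 700, 1498 and 962 CPM against 651, 822, 1190 and 556; log2 fold change 0.24 ± 0.44, adjusted p = 0.800).

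Of 13880 genes tested, 363 (2.62%) were called at an adjusted p below 0.05. Of these, 248 (1.79%) were higher and 115 (0.829%) lower in the knockout libraries. The counts of called list members given below are to be read beside these shares. The higher genes moved further: their median log2 fold change was 1.05 and 135 of them changed more than 2-fold, whereas the lower genes had a median of -0.50 and 7 changed more than 2-fold. Over all genes tested the median was -0.00 and 49.4% were above 0. The groups did not overlap in 336 of the 363 called genes, beside 13.5% of all genes tested. The calls were made on these same libraries, so this count is no separate support for them. Without 1 library the count was 53 (wild type 2 left out) to 453 (wild type 3 left out), and 63 without knockout 3. With wild type 3 moved to the knockout group 170 genes were called, 80 higher and 90 lower, of which 97 were among the 363. Of the 83 called genes that are named here, the fit without wild type 2 lost 61, that without knockout 3 lost 59, that without wild type 1 lost 51 and that without wild type 4 lost 44. The fits without knockout 1, 2 or 4 lost 35, 35 and 36, and that without wild type 3 lost 18. Of the same 83 genes, 20 were called in all 8 fits that each left out 1 library, and 11 of these 20 also with wild type 3 moved.

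**Figure D2:**
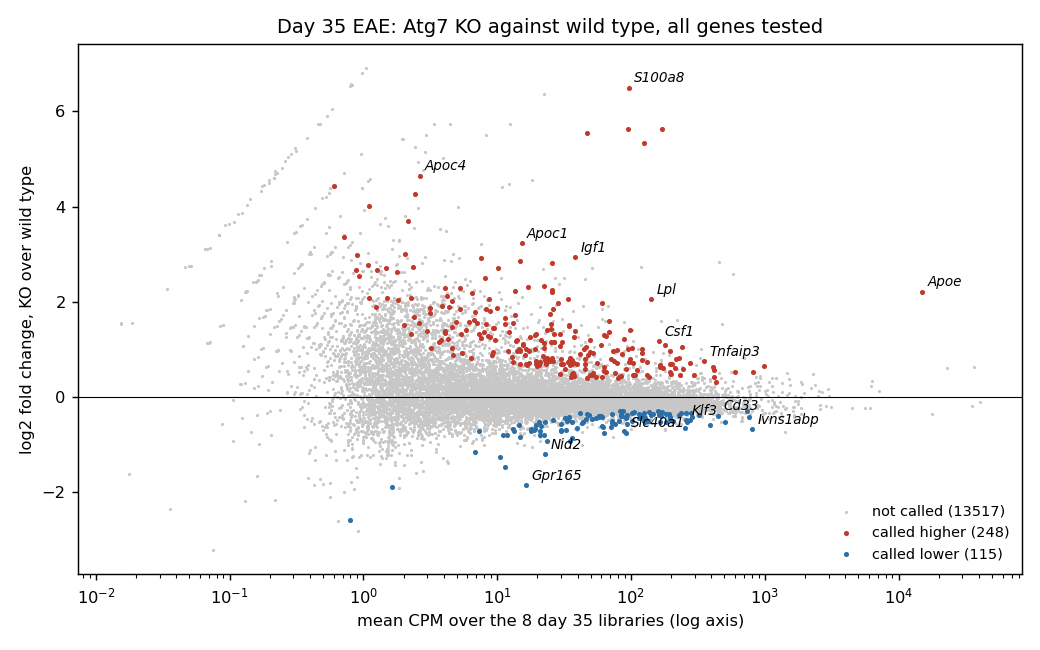
Log2 fold change, knockout over wild type (vertical axis), against mean CPM over the 8 libraries (logarithmic horizontal axis); each point is 1 of the 13880 genes tested, red called higher (248) and blue called lower (115). Higher genes reach larger fold changes, with Apoe the most abundant of those labelled, and the lower genes lie mostly within 1 log2 unit of 0.

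Of the 20 named genes called in all 8 fits without 1 library, 13 were higher and 7 lower in the knockout. Igf1, insulin-like growth factor 1, which supports oligodendrocytes and myelin, was at 72.3, 64.1, 82.9 and 50.8 CPM in the knockout and 8.01, 9.13, 5.95 and 11.98 CPM in the wild-type libraries. The lowest knockout library was above the highest wild-type library by a wide margin (7.67-fold by means; log2 fold change 2.94 ± 0.40, adjusted p = 0.000375). Lpl, lipoprotein lipase, which frees fatty acids from lipoproteins, was at 247, 230, 273 and 163.4 CPM against 43.0, 56.3, 49.6 and 71.0 CPM, again without overlap (4.15-fold; 2.05 ± 0.27, adjusted p = 0.000218). Csf1, a growth factor of macrophages and microglia, was at 210, 222, 253 and 221 CPM against 113, 97.2, 85.9 and 104.2 CPM (1.18 ± 0.23, adjusted p = 0.00791). Gadd45b, a stress-response gene, had the lowest p of all and was at 26.3, 36.1, 39.7 and 34.3 CPM against 10.6, 12.6, 15.2 and 12.6 CPM (2.68-fold; 1.42 ± 0.19, adjusted p = 0.000203). These 4 genes were called in each of the 8 fits without 1 library. With wild type 3 moved, Csf1 was no longer called.

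Other genes with calls in all 8 of those fits were the calcium channel gene Cacna1a (69.2 ± 12.2 against 30.1 ± 4.48 CPM, log2 fold change 1.204), the myosin genes Myh10 (0.95) and Myo1e (125 ± 2.18 against 53.3 ± 4.24 CPM, 1.23), and Psat1, of serine synthesis (25.4 ± 2.93 against 12.7 ± 3.03 CPM, 1.01). Gpx3, a secreted glutathione peroxidase, was at 17.6 ± 9.43 against 2.68 ± 0.909 CPM (2.71 ± 0.49, adjusted p = 0.00601). Colec12, a scavenger receptor with a collagen-like stalk, was at 54.5, 54.2, 42.0 and 28.7 CPM against 5.72, 5.17, 4.38 and 10.1 CPM (2.81 ± 0.48, adjusted p = 0.00312). It was the 1 gene called among the 28 tested of the scavenger and phagocytic receptors, whose median was 0.12. Cacna1a, Gpx3 and Colec12 were not called with wild type 3 moved.

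**Figure D3:**
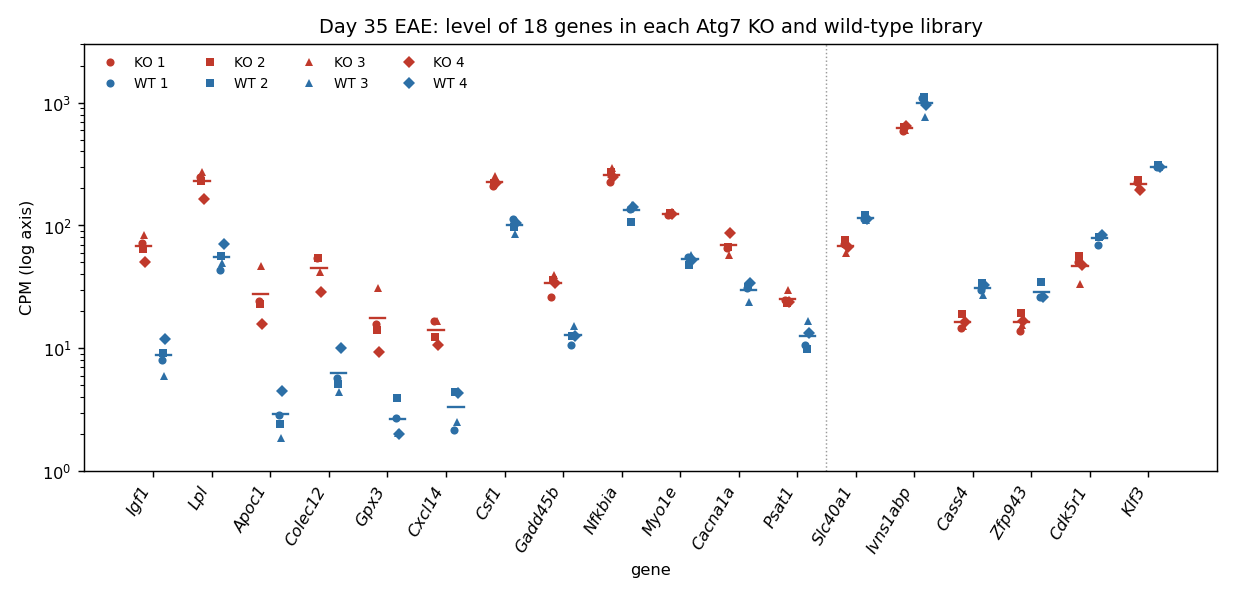
CPM (logarithmic vertical axis) of 18 genes called in every fit without 1 library, in the 4 knockout (red) and 4 wild-type (blue) libraries; symbols are libraries and lines group means. Left of the dotted line the 12 genes are higher in every knockout library, right of it the 6 genes are lower in every knockout library.

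Of 34 disease-associated microglial genes tested, 13 were called higher, beside 1.79% of all genes tested, and 0 lower; 33 had a log2 fold change above 0 and the median was 1.18, beside -0.00 over all genes. In 23 of the 34 every knockout library was above every wild-type library, beside 7.53% of all genes tested. Besides Igf1, Lpl and Csf1, the called members were Apoe, Fabp5, Ch25h, Cd63, Cst7, Clec7a, Cd200r4, Mamdc2, Ank and Fth1. Clec7a, the beta-glucan receptor dectin-1, was at 130, 147, 155 and 145.7 CPM against 55.3, 57.2, 49.3 and 54.99 CPM (1.41 ± 0.32, adjusted p = 0.0252), and Cst7, cystatin F, an inhibitor of lysosomal cathepsins, at 96.8 ± 18.0 against 24.5 ± 2.50 CPM (1.98, adjusted p = 0.0311). Cd63, a tetraspanin of late endosomes, was at 93.3, 91.0, 141 and 91.6 against 43.3, 42.0, 62.6 and 61.3 CPM (0.99). Fth1, the ferritin heavy chain that stores iron, was at 1219 ± 151 against 770 ± 45.1 CPM (0.66).

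Several well-known members did not pass the test. Spp1, osteopontin, was at 824, 809, 851 and 701 CPM against 111.8, 153.7, 66.1 and 113 CPM, 7.17-fold by means without overlap, with an adjusted p of 0.0669. Gpnmb was at 207.9 ± 38.9 against 31.2 ± 9.35 CPM (adjusted p = 0.138), and Itgax, the integrin CD11c, at 151 ± 17.2 against 74.6 ± 5.13 CPM (adjusted p = 0.0845). In a fit of the 8 libraries alone, Spp1, Gpnmb and Itgax were all called higher. A second program, DESeq2, called Spp1 and Itgax, but no fit without 1 library called any of the 3. Trem2, the lipid receptor through which part of this set is induced, was at 691 ± 124.3 against 693 ± 124.3 CPM (adjusted p = 0.995). Without 1 library, 3 to 14 of the list were called, and 5 with wild type 3 moved. Clec7a, Cst7, Cd63 and Fth1 were called in 4, 2, 5 and 3 of the 8 fits without 1 library (highest adjusted p 0.0860, 0.101, 0.0759 and 0.101). All 4 were lost without knockout 3, wild type 1 or wild type 2. Cd200r4, Mamdc2 and Ank were called in 2, 1 and 5 of the 8 fits.

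Of the homeostatic microglial genes few passed the test. Of 34 tested, 1 was called lower, beside 0.829% of all genes tested, and 0 higher. Below 0 lay 30, with a median of -0.32, and in 13 every knockout library was below every wild-type library, beside 5.92% of all genes tested. With wild type 3 moved, 0 were called and the median was -0.14. The called gene was Upk1b, a uroplakin, at 19.9, 21.7, 24.8 and 25.7 CPM against 34.0, 37.0, 39.1 and 38.1 CPM (log2 fold change -0.68 ± 0.19, adjusted p = 0.0441), a call lost in each of the 8 fits without 1 library (highest adjusted p 0.122). P2ry12, the ADP receptor of resting microglia, was at 1187, 1232, 1052 and 787 CPM against 1416, 1688, 2045 and 1937 CPM, without overlap (-0.73, adjusted p = 0.0906). DESeq2 and a fit of the 8 libraries alone called P2ry12 lower, and no fit without 1 library did. Sall1, a transcription factor of microglial identity, was at 1094 ± 159 against 1465 ± 128.5 CPM (-0.42, adjusted p = 0.192), and Tmem119 overlapped (1339 ± 300 against 1558 ± 490 CPM, adjusted p = 0.670). Among the 22 genes of Trem2 and Tyrobp signalling, 18 lay below 0 and 1 was called, Cd33, an inhibitory sialic acid receptor, at 391 ± 29.0 against 511 ± 24.4 CPM (-0.39, adjusted p = 0.0321); its call held in 2 of the 8 fits without 1 library (highest adjusted p 0.0943).

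**Figure D4:**
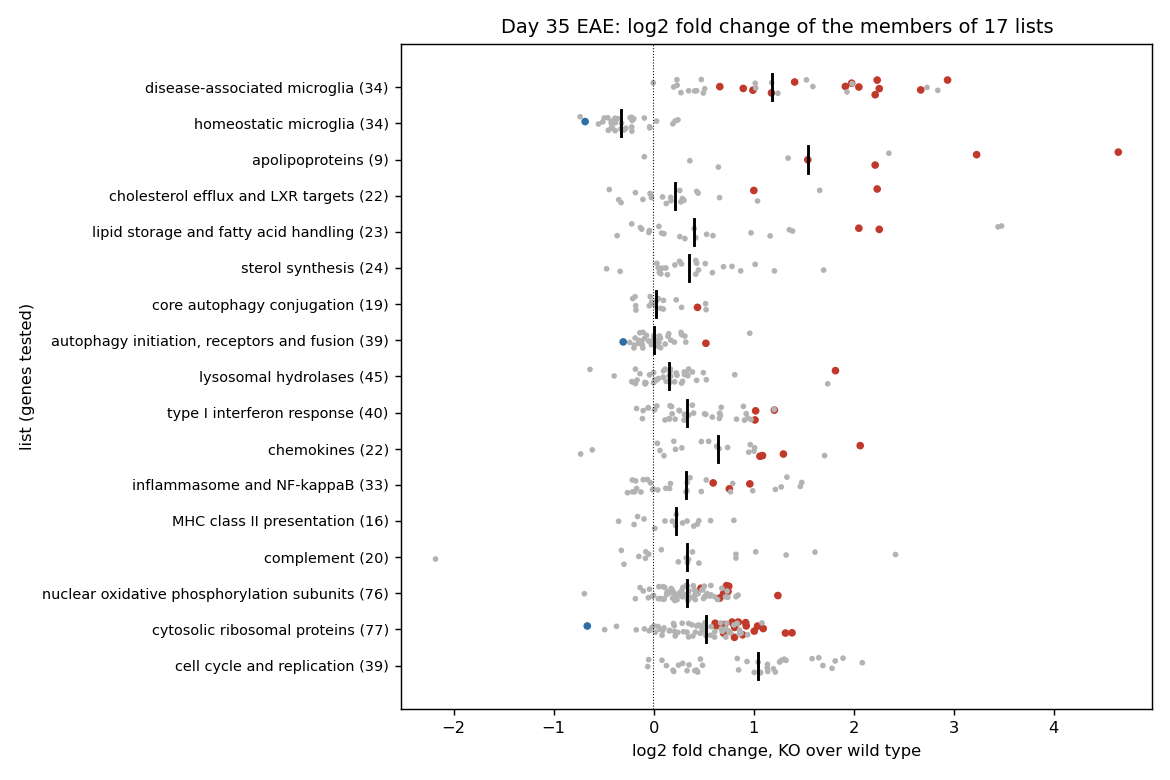
Log2 fold change, knockout over wild type, of each tested member of 17 gene lists; red points were called higher, blue called lower, grey not called, and black bars are list medians. The dotted line is the median of all genes tested, and the medians of the disease-associated and homeostatic lists lie at 1.18 and -0.32.

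Of the 9 apolipoprotein and related genes tested, 4 were called higher, beside 1.79% of all genes tested, and 0 lower (median 1.54). Apoe, the main lipid carrier secreted by glia, (chr7:19696109-19699188) was at 24409, 20862, 37899 and 16107 CPM against 3782, 4245, 5377 and 7966 CPM. The groups did not overlap, although the spread among the knockout libraries was wide (4.65-fold; log2 fold change 2.22 ± 0.52, adjusted p = 0.0304). Apoc1, in the same gene cluster on chromosome 7, was at 24.5, 23.1, 47.0 and 15.8 CPM against 2.86, 2.43, 1.88 and 4.47 CPM (3.23 ± 0.54, adjusted p = 0.00286). Apoc4 was at 4.01, 2.99, 10.7 and 2.61 CPM against 0, 0.152, 0 and 0.577 CPM (5 counts in all over the wild-type libraries; 4.65 ± 0.94, adjusted p = 0.00974). Apoc2, the cofactor of Lpl, was at 10.1 ± 2.09 against 1.94 ± 0.977 CPM (adjusted p = 0.0510), and Clu, clusterin, at 16.9 ± 6.44 against 5.81 ± 0.887 CPM (1.54, adjusted p = 0.0337). Knockout 3 was the highest library for Apoe, Apoc1 and Apoc4, and knockout 4 the lowest. Without 1 library, 1 to 4 of the 9 were called and with wild type 3 moved 0; Apoe was not called without knockout 1, knockout 3, wild type 1 or wild type 2 (highest adjusted p 0.104), Apoc4 not without knockout 3 (0.0527), and Clu was called only without knockout 2 and without wild type 3 (highest adjusted p 0.108).

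Inside the cell, Fabp5, a fatty acid carrier, was at 42.3, 46.3, 34.5 and 47.9 CPM against 9.58, 9.28, 6.58 and 10.2 CPM (2.26 ± 0.51, adjusted p = 0.0255). Ch25h, which makes 25-hydroxycholesterol, was at 19.5, 16.9, 26.6 and 26.3 against 3.72, 2.43, 6.58 and 6.21 CPM (2.24 ± 0.45, adjusted p = 0.0110), and Nceh1, which hydrolyses cholesteryl esters, at 59.4 ± 9.48 against 29.6 ± 10.1 CPM (1.00). Ch25h and Nceh1 were the 2 called of 22 genes of cholesterol efflux and LXR targets, whose median was 0.22, and Fabp5 and Lpl the 2 called of 23 genes of lipid storage and fatty acid handling (median 0.41). Among all genes tested 2.62% were called. Sterol synthesis had no called member among 24, with 22 above 0 and a median of 0.35. Fabp5 and Nceh1 were each called in 3 of the 8 fits without 1 library and lost without knockout 2, knockout 3, wild type 1 or wild type 2 (highest adjusted p 0.0890 and 0.154), and Ch25h not without wild type 2 (0.0648).

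Transcripts of the autophagy pathway, in which Atg7 acts, differed in few places, and 2.62% of all genes tested were called. Of the 19 core conjugation genes 1 was called, Gabarap, an Atg8-family protein, at 89.1, 83.3, 125 and 86.9 CPM against 64.6, 63.6, 79.8 and 75.8 CPM (0.44 ± 0.12, adjusted p = 0.0486); the list median was 0.03. Of 39 genes of initiation, cargo receptors and fusion, 1 was called in each direction and the median was 0.00. Sqstm1, the cargo receptor p62, was at 226, 235, 257 and 202.8 CPM against 168.7, 151.99, 162.3 and 157 CPM, higher in every knockout library (0.52 ± 0.11, adjusted p = 0.0108). Tfe3, a transcription factor of lysosome and autophagy genes, was at 157, 160, 154.05 and 143 CPM against 194, 182, 195 and 187 CPM (-0.30 ± 0.08, adjusted p = 0.0439). The calls of Gabarap and Tfe3 were lost in 7 and 8 of the 8 fits without 1 library (highest adjusted p 0.201 and 0.114) and that of Sqstm1 without knockout 3 or wild type 2 (0.0564).

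Among lysosomal genes, 1 of 45 hydrolases was called, near the 2.62% of all genes tested, and the median of that list was 0.15. The called gene was Ctse, cathepsin E, at 13.8 ± 3.28 against 3.89 ± 1.15 CPM (1.82, adjusted p = 0.0367). Of 36 genes of the lysosomal membrane and proton pump, 2 were called: Cd63, given above, and Atp6v0d2, a subunit of the proton pump, at 4.05 ± 1.02 against 0.287 ± 0.404 CPM (8 counts in all over the wild-type libraries; 3.70, adjusted p = 0.0377). The proteasome, the other main route of protein degradation, had 1 called of 36, also near the share of all genes tested. It was Psmb6, at 39.0 ± 6.40 against 25.7 ± 4.94 CPM (0.60). Atp6v0d2 was called in 0, Ctse in 2 and Psmb6 in 5 of the 8 fits without 1 library (for Ctse, Atp6v0d2 and Psmb6 in turn, highest adjusted p 0.133, 0.135 and 0.101).

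Of 33 inflammasome and NF-kappaB genes, 3 were called higher, beside 1.79% of all genes tested, and 0 lower; 21 lay above 0 and 12 below, with a median of 0.32. Nfkbia, the inhibitor I-kappaB-alpha, which is itself a target of the factor, was at 227, 270, 295 and 246 CPM against 137, 107, 148.1 and 141 CPM (1.95-fold; 0.96 ± 0.14, adjusted p = 0.000291), and was called in every fit without 1 library and with wild type 3 moved. Tnfaip3, the inhibitor A20, was at 394, 463, 455 and 471 CPM against 310, 287, 207.7 and 250 CPM (0.76 ± 0.18, adjusted p = 0.0294), and Cd83, an activation marker, at 294 ± 39.8 against 194 ± 32.1 CPM (0.60). These were the 3 called genes of the list. Tnf, a main inducer of the pathway, was at 86.2, 100, 91.9 and 110 CPM against 57.9, 44.1, 49.2 and 46.5 CPM (0.97, adjusted p = 0.0410). Of the immediate-early genes, 2 of 26 were called, Ier3 at 27.8 ± 5.87 against 11.0 ± 1.47 CPM (1.33) and Egr2 at 28.4 ± 0.507 against 15.5 ± 1.85 CPM (0.87). Tlr2, a receptor of bacterial lipoproteins, was higher (211.5 ± 18.5 against 138.4 ± 28.6 CPM, 0.61) and Tlr5, the flagellin receptor, lower (8.10 ± 0.887 against 14.02 ± 3.44 CPM, -0.79), the 2 called of 26 Toll-like receptors and adaptors. Tnf and Egr2 were called in none of the 8 fits without 1 library (highest adjusted p 0.139 and 0.127), Tnfaip3 in 2 of them (0.0808) and Tlr5 in 1 (0.182). Tlr2, Cd83 and Ier3 were called in 6, 5 and 5 of the 8 fits, and all were lost without knockout 3 or wild type 2 (0.0860, 0.104 and 0.0890).

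Chemokine genes were called higher in 4 cases of 22 tested, beside 1.79% of all genes tested, and lower in 0 (median 0.64). Cxcl14 was at 16.6, 12.4, 16.6 and 10.7 CPM against 2.14, 4.41, 2.50 and 4.33 CPM (2.07 ± 0.40, adjusted p = 0.00713). Cxcl10, a ligand of CXCR3 on T cells, was at 74.4, 91.3, 91.4 and 97.9 CPM against 43.0, 34.99, 36.2 and 30.2 CPM (1.298 ± 0.30, adjusted p = 0.0290). Ccl3, which attracts monocytes and T cells, was at 328.1 ± 30.7 against 157 ± 35.7 CPM (adjusted p = 0.0476), and Ccl4 at 245 ± 15.4 against 115 ± 18.9 CPM (adjusted p = 0.0498). Cxcl14 was called in all 8 fits without 1 library; Cxcl10 was called in 2 of them (highest adjusted p 0.0954), and Ccl3 and Ccl4 in none (0.171 and 0.176). Cxcr4, the receptor of CXCL12, was at 33.7, 39.8, 41.4 and 33.4 CPM against 6.86, 12.6, 5.17 and 4.76 CPM (2.33 ± 0.56, adjusted p = 0.0332), also called in none of those fits (0.0999). Il16, a ligand of CD4, was lower (200.6 ± 20.5 against 260 ± 16.4 CPM, -0.37, adjusted p = 0.0304) and was called in 2 of the 8 fits (0.0975).

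Type I interferon targets were mostly above 0, and few passed the test. Of 40 tested, 3 were called higher, beside 1.79% of all genes tested, and 0 lower. Above 0 lay 35, and the median was 0.34. Ifit2, an interferon-induced RNA-binding protein, was at 122.4, 131.8, 127.9 and 127.6 CPM against 69.8, 58.7, 70.1 and 52.5 CPM (1.02 ± 0.26, adjusted p = 0.0395), Ifit1 at 23.03, 24.4, 18.7 and 21.6 CPM against 10.7, 7.61, 17.1 and 8.08 CPM (1.01 ± 0.28, adjusted p = 0.0494), and Ifi27l2a at 19.6 ± 8.001 against 8.51 ± 3.14 CPM. The groups did not overlap for any of the 3, but this held for 336 of the 363 called genes and adds nothing to their calls. In 13 of the 40 every knockout library was above every wild-type library, beside 7.53% of all genes tested. Ifit1 and Ifit2 were called without wild type 3 and in no other fit without 1 library, and Ifi27l2a in 3 of the 8 (highest adjusted p 0.187, 0.128 and 0.139). None of the 17 interferon-induced GTPases, 22 MHC class I, 16 MHC class II, 20 complement or 6 Fc gamma receptor genes was called (medians 0.21, 0.19, 0.22, 0.33 and 0.09).

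The promoters of Nfkbia, Csf1, Cxcl10 and Ifit1 are shown because these called genes hold matches to an NF-kappaB motif (GGGA and TTCC with any 2 bases between them) or an interferon response motif (GAAA and GAAA with any 2 bases between them). Each sequence is the 250 bases before the annotated start, from RefSeq (GRCm38.p6), read 5′ to 3′ on the gene's strand, with matches on either strand in capitals.

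Nfkbia: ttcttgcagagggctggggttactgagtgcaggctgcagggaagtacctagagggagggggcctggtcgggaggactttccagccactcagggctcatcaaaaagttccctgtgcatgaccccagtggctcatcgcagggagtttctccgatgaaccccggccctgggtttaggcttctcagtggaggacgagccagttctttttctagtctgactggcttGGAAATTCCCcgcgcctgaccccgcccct

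Csf1: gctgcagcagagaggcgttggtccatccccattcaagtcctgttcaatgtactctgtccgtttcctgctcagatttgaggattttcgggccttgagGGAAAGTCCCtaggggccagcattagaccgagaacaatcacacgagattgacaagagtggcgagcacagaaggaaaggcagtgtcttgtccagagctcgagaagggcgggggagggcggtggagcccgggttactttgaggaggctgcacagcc

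Cxcl10: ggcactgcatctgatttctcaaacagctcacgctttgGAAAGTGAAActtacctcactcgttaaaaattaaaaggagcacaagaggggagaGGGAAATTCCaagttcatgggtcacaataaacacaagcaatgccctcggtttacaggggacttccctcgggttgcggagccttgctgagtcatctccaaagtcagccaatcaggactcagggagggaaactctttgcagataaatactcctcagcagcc

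Ifit1: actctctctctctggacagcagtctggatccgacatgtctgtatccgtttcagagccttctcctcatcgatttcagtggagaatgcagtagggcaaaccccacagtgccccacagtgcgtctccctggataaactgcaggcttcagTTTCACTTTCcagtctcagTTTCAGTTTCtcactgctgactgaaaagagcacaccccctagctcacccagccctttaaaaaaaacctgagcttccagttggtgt

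The Nfkbia promoter (chr12:55492648-55492897, minus strand) holds the NF-kappaB letters 29 to 20 bases before the start, and that of Csf1 (chr3:107760470-107760719, minus strand) ending 145 bases before it. The Cxcl10 promoter (chr5:92348890-92349139, minus strand) holds the interferon motif beginning 213 bases and the NF-kappaB motif 159 to 150 bases before the start. The Ifit1 promoter (chr19:34640639-34640888, plus strand) holds the interferon motif at 2 places, which end 95 and 76 bases before the start. Of 32851 promoter windows of the same length, 1.21% hold the NF-kappaB letters and 2.98% the interferon letters. Genes that were lower hold them too: Il16 and Ivns1abp have the NF-kappaB letters and Tmc7 the interferon letters. A match describes the sequence and is not a bound site. Of the genes named here, 24 share exon bases with another annotated gene, 18 of them with one on the opposite strand, and for such genes reads of both partners cannot be told apart unless strand was used in counting, which is not stated.

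Of 77 cytosolic ribosomal protein genes tested, 18 were called higher, beside 1.79% of all genes, and 1, Rpl5, lower; 70 lay above 0 and the median was 0.53. Rps19 was at 58.8, 58.8, 134.3 and 73.4 CPM against 37.6, 29.4, 43.4 and 41.9 CPM (1.10 ± 0.22, adjusted p = 0.0104). Knockout 3 was the highest library, as it was for Rps20 (125.6 ± 25.2 against 71.7 ± 18.4 CPM) and Rpl13 (62.4 ± 29.7 against 33.7 ± 7.41 CPM). Without 1 library, 0 (knockout 3 or wild type 2 left out) to 26 (wild type 3 left out) ribosomal genes were called higher, and the list median lay between 0.43 and 0.67. Rps19, Rps20 and Rpl13 were each lost without knockout 3 or wild type 2 (highest adjusted p 0.0648, 0.0770 and 0.0914), and Rps20 and Rpl13 also without wild type 1. These genes have many near-identical processed copies, among which reads can be split. Of 76 nuclear subunits of oxidative phosphorylation, 8 were called higher, beside 1.79% of all genes, and 0 lower (69 above 0, median 0.34). Among the 8 were Ndufa1, of complex I, at 10.7 ± 3.12 against 4.51 ± 1.41 CPM (1.24) and Cox4i1, of complex IV, at 94.5 ± 28.5 against 56.1 ± 7.12 CPM (0.75). Without 1 library 0 (knockout 3 or wild type 2 left out) to 12 of the 76 were called, and Ndufa1 and Cox4i1 were lost without knockout 3 or wild type 2 (highest adjusted p 0.0651 and 0.102). Cox4i1 was also lost without wild type 1 or wild type 4. Of 8 mitochondrially encoded genes tested 0 were called, with mt-Co1, of complex IV, at 1741 ± 94.3 against 1219 ± 143 CPM (adjusted p = 0.229). That list is incomplete: mt-Nd4l, mt-Co2, mt-Atp6 and mt-Atp8 had 0 counts in both groups. mt-Co3 had 1 count in the knockout and 0 in the wild-type libraries. The cause was not tested.

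Glycolysis had 2 called of 25, beside 2.62% of all genes tested (median 0.35). They were Hif1a, the hypoxia-inducible factor, at 271, 269, 286 and 243 CPM against 180, 199, 210 and 190 CPM (0.46 ± 0.12, adjusted p = 0.0439), and Tpi1 at 46.0 ± 10.7 against 26.7 ± 4.34 CPM (0.79). Gpx1, the cytosolic glutathione peroxidase, was at 105, 101.4, 160 and 117 CPM against 69.1, 66.6, 82.5 and 70.7 CPM (0.74 ± 0.16, adjusted p = 0.0160), and with Gadd45b made up the 2 called of 33 stress-response genes. Of 39 cell cycle genes 0 were called and 37 lay above 0 (median 1.05). Uhrf1, of DNA replication, was at 4.31, 6.14, 4.65 and 11.2 CPM against 1.29, 1.67, 2.82 and 1.88 CPM (adjusted p = 0.129), and E2f1 at 4.69 ± 1.06 against 2.12 ± 0.456 CPM (adjusted p = 0.0511). Hif1a and Tpi1 were called without wild type 3 and in no other fit without 1 library (highest adjusted p 0.129 and 0.177), and Gpx1 was not called without knockout 3, wild type 1 or wild type 2 (0.0808).

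Among the lower genes, Slc40a1, ferroportin, the exporter of iron from cells, was at 70.7, 75.9, 59.8 and 66.7 CPM in the knockout and 113.7, 121, 110 and 113 CPM in the wild-type libraries (log2 fold change -0.75 ± 0.10, adjusted p = 0.000212). Every knockout library was below every wild-type library, while Fth1, the iron store, was higher (above). Ivns1abp was at 585, 633, 599 and 645 CPM against 1087, 1118, 770 and 964 CPM (-0.68 ± 0.12, adjusted p = 0.00397). Klf3, a transcriptional repressor, was at 216 ± 17.1 against 300.7 ± 5.30 CPM (-0.48), and Cdk5r1, an activator of the kinase CDK5, at 46.9 ± 9.61 against 78.9 ± 6.80 CPM (-0.75). The adaptor gene Cass4 (16.3 ± 1.97 against 30.8 ± 3.06 CPM, -0.92) and the zinc finger genes Zfp26 (49.8 ± 1.91 against 66.1 ± 4.65 CPM, -0.41) and Zfp943 (16.3 ± 2.30 against 28.5 ± 3.98 CPM, -0.80) were also lower. All 7 were called in each of the 8 fits without 1 library, and Klf3, Cdk5r1 and Zfp943 were not called with wild type 3 moved.

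Gpr165, an orphan receptor, was at 9.36, 7.19, 7.60 and 4.34 CPM against 25.0, 41.4, 16.3 and 19.6 CPM (-1.85 ± 0.49, adjusted p = 0.0439). Sema6d, a semaphorin, was at 7.28, 7.04, 2.68 and 7.20 CPM against 15.7, 24.6, 13.3 and 13.4 CPM (-1.47), and Sema4b at 15.4 ± 0.858 against 26.6 ± 1.09 CPM (-0.79). These were the 2 called lower of 32 axon guidance genes tested, and 1 was called higher. In that list 20 lay above 0 and 12 below, with a median of 0.36. Nid2, a basement membrane nidogen, was at 13.2, 14.5, 16.3 and 11.2 CPM against 30.2, 34.5, 30.2 and 31.5 CPM (-1.19 ± 0.25, adjusted p = 0.0129), whereas Postn, the matrix protein periostin, was higher (27.6 ± 8.62 against 11.1 ± 2.29 CPM, 1.31), the 2 called of 32 matrix genes. Tmem204 (6.23 ± 0.943 against 14.9 ± 1.29 CPM), the channel gene Kcnk12 (4.23 ± 0.482 against 9.37 ± 1.10 CPM), Tmc7 (24.2 ± 4.28 against 45.9 ± 7.26 CPM) and the B cell adaptor gene Bank1 (25.5 ± 2.52 against 46.6 ± 10.5 CPM) were lower as well. Nid2 and Bank1 were not called without wild type 2 (adjusted p 0.0564 and 0.0514); Gpr165, Sema6d, Sema4b, Postn, Kcnk12, Tmem204 and Tmc7 were called in 1 or 2 of the 8 fits without 1 library.

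Some called genes are known mainly from other cells, whose marker sums are given above. Among the neutrophil markers 5 of 16 were called. S100a8, a calgranulin subunit, was at 80.2, 85.8, 21.97 and 577 CPM against 4.58, 0.913, 0.313 and 2.45 CPM (6.50 ± 1.53, adjusted p = 0.0304) and S100a9, its partner, at 157, 168.9, 32.7 and 972 CPM against 12.2, 8.67, 1.10 and 4.76 CPM (5.63 ± 1.40, adjusted p = 0.0377). The granule protein genes Ngp, Ltf and Lcn2 were at 245 ± 334, 187 ± 226 and 92.8 ± 108 CPM in the knockout and 6.02 ± 5.88, 3.70 ± 2.41 and 1.94 ± 1.16 CPM in the wild-type libraries. In the fits without 1 library, 1 of the 16 was called without knockout 1, 2 or 3 and 0 without knockout 4 or any 1 of the wild-type libraries, whereas DESeq2 called 13. Csf3r was not called (565 ± 23.2 against 656 ± 78.7 CPM, adjusted p = 0.294). Hbb-bt, a beta-globin, was at 6.54, 11.7, 13.7 and 22.96 CPM against 1.43, 1.37, 5.01 and 1.88 CPM (2.50, adjusted p = 0.0439), the 1 called of 7 erythroid genes tested, and its near-identical neighbour Hbb-bs at 76.5 ± 42.4 against 13.8 ± 9.56 CPM (adjusted p = 0.0694). None of 14 monocyte genes was called, and Fn1 had an adjusted p of 0.0688. Fn1 was called by DESeq2, in a fit of the 8 libraries alone and in a non-robust fit, and in no fit without 1 library.

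Siglec1, a sialic acid receptor of border and inflammatory macrophages, was at 40.1, 34.3, 36.6 and 40.5 CPM against 17.4, 13.1, 9.71 and 11.98 CPM (1.53 ± 0.39, adjusted p = 0.0395), the 1 called of 14 markers of border-associated macrophages, whose summed levels overlapped between the groups. Cspg4 (NG2), best known from oligodendrocyte precursors and pericytes, was at 30.01, 28.9, 22.4 and 22.7 CPM against 1.57, 2.74, 5.01 and 5.05 CPM (2.85 ± 0.67, adjusted p = 0.0293), the 1 called of 10 oligodendrocyte markers tested; other markers of that list, among them Pdgfra, Olig2 and Sox10, were below the count filter. Of the endothelial markers, Flt1, a VEGF receptor, was higher (46.5, 48.4, 46.5 and 42.2 CPM against 9.58, 14.5, 7.67 and 14.6 CPM, 1.98 ± 0.44, adjusted p = 0.0222) and Pecam1 lower (13.9 ± 1.59 against 21.96 ± 2.32 CPM, -0.67, adjusted p = 0.0189). The summed level of these markers was higher in every knockout library, through Flt1. Siglec1 was called in none of the 8 fits without 1 library (highest adjusted p 0.116), Cspg4 without knockout 4 and without wild type 3 alone, and Flt1 not without knockout 3, wild type 1 or wild type 2 (0.0807). Pecam1 was lost without knockout 3, knockout 4 or wild type 1 (0.0577).

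The genotype difference at day 35 was then set against that in naive mice and at day 21, by a test of the difference itself. Against naive mice 51 genes (0.367%) were called, 33 (0.238%) with a higher and 18 (0.130%) with a lower difference at day 35. For Igf1 the log2 fold change between knockout and wild type was -0.32 ± 0.40 in naive mice and 2.94 ± 0.40 at day 35 (difference 3.26 ± 0.56, adjusted p = 0.0142). Lpl went from 0.13 to 2.05 (adjusted p = 0.0246), Nfkbia from -0.11 to 0.96 (0.0142), Gadd45b from -0.26 to 1.42 (0.00529), Csf1 from -0.28 to 1.18 (0.0458) and Slc40a1 from -0.07 to -0.75 (0.0313). Cx3cr1 differed most in the naive comparison, where its log2 fold change was -3.93, against 0.24 at day 35 (difference 4.17 ± 0.64, adjusted p = 0.00597).

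Against day 21 the difference of 370 genes (2.67%) was called, 258 (1.86%) higher and the other genes (0.807%) lower at day 35. Igf1 (-0.55 ± 0.46 at day 21), Lpl (-0.40 ± 0.29), Apoc1 (0.32), Csf1 (-0.17), Gadd45b (0.17) and Nfkbia (-0.15) differed between genotypes more at day 35 (adjusted p of the difference 0.00216, 0.00116, 0.0391, 0.0266, 0.00940 and 0.00191). Cd83, Cacna1a and Sqstm1 had log2 fold changes of -0.81, -0.50 and -0.14 at day 21 and 0.60, 1.204 and 0.52 at day 35 (adjusted p 0.000411, 0.000327 and 0.0206). Of the 34 disease-associated genes, 7 differed between the days, and the list median was 0.05 at day 21 and 0.08 in naive mice. The homeostatic list had a median of -0.92 at day 21 and 0.01 in naive mice; Upk1b was lower in the knockout by more at day 21 (-2.25) than at day 35 (adjusted p 0.00294), as was Slc40a1 (-1.45 ± 0.11 against -0.75 ± 0.10, adjusted p 0.0104). For Apoe the difference between the days did not pass the test (0.24 ± 0.54 at day 21, adjusted p = 0.141). Without 1 of the 8 libraries, 9 to 74 genes were called against naive mice and 176 to 517 against day 21. The 2 contrasts share the 8 day 35 libraries. With wild type 3 moved, 13 and 769 genes were called.

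**Figure D5:**
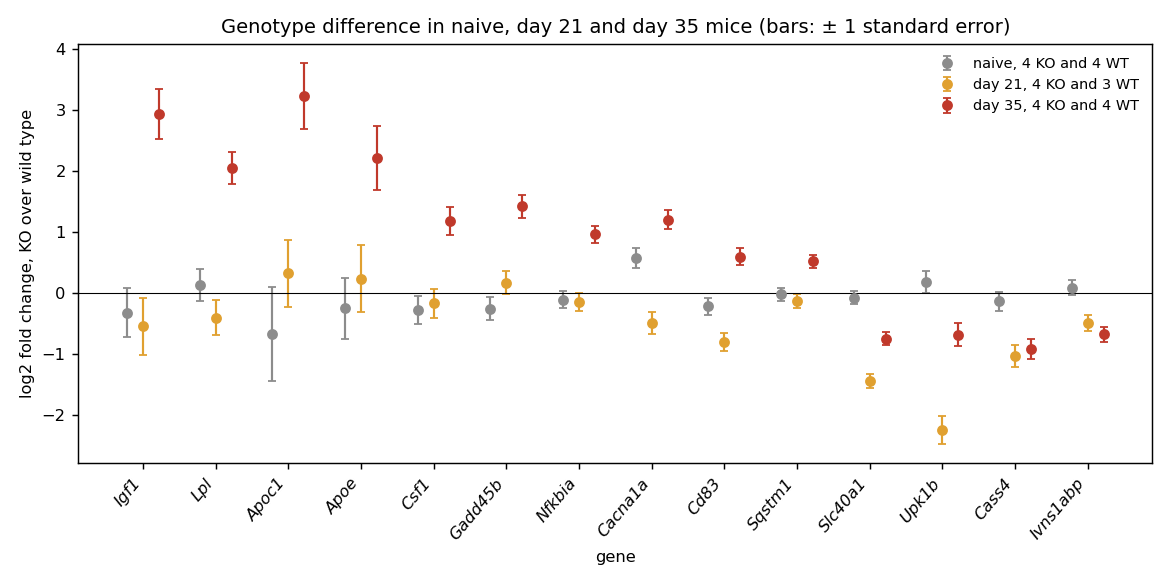
Log2 fold change between knockout and wild type (vertical axis, points with bars of 1 standard error) of 14 genes in naive mice (grey), at day 21 (yellow) and at day 35 of EAE (red). The first 10 genes are higher at day 35 than at day 21, whereas Slc40a1 and Upk1b are further below 0 at day 21 than at day 35.

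Another day 35 group came from old wild-type mice, with EAE scores of 2.75, 2.75 and 3, which lie in the knockout range. No gene passed the test between knockout and old libraries with edgeR or DESeq2 (1350 genes, or 9.73%, at an unadjusted edgeR p below 0.05). Igf1 was at 41.4, 25.1 and 46.75 CPM in the old libraries, Lpl at 130.7, 126.4 and 169.4 CPM, Apoe at 13520, 15810 and 18060 CPM and Slc40a1 at 78.85, 88.84 and 83.38 CPM. For these 4 genes the old libraries lay between the young wild-type and most or all of the knockout libraries. Age and genotype both differ between these groups.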

How the data were processed

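Microglia of 30 mouse libraries in 8 groups were profiled by RNA sequencing, and the 4 knockout and 4 wild-type libraries of day 35 are compared here. The authors deposited raw counts per Ensembl gene; CASAVA, bcl2fastq, STAR and GRCm38 are named per the submitters' processing notes. For the counting tool, strand setting, versions and annotation, nothing is given in the sources used here. Each library's EAE score and RNA integrity score come from the sample table the authors deposited, which states no scale for the EAE score. Of 32 count columns, 2 matched no sample and were not used. Symbols were taken from GENCODE M21 (98.2% of gene IDs matched).

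Counts of all 30 libraries were fitted in edgeR 4.0.16 (R 4.3.3) with TMM factors, its default expression filter and a robust quasi-likelihood test, with the 8 groups as the design, no covariate and 22 residual degrees of freedom, so that the groups share one estimate of the spread. P-values were adjusted by Benjamini-Hochberg over 13880 genes and called below 0.05. CPM uses the TMM factors, and the standard error is the log2 fold change divided by the root of F. In counts simulated for this comparison over 13880 genes, log2 fold changes of -2, -1, 1 and 2 were recovered for 78, 54, 64 and 94% of 50 genes each, and 4.6% of calls were false. The simulated counts were independent, with 1 dispersion per gene and no deviation shared by the genes of a library. The 4.6% therefore does not measure how many calls in the real libraries are false.

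The members and lists were chosen with earlier results of these data known. Named genes are Atg7 and Cx3cr1, the 12 highest and 12 lowest called fold changes at a mean of at least 5 CPM without overlap between groups, the 8 lowest p-values in each direction, up to 4 called genes (or 2 others) of each process list and the most abundant or called markers of each cell type; not all of these are described. Cst7, Clec7a, Cd200r4, Mamdc2, Ank, Fth1, Spp1, Gpnmb, Trem2, P2ry12, Tmem119, Sall1, Tnf and Apoc2 were added after their values were seen. Alternatives were DESeq2 1.42.0, the 8 libraries alone, other scaling and filters, a non-robust fit, a block by i5 index, each library left out and wild type 3 moved; list counts without a library and the neutrophil sum without Csf3r were added after seeing the data. Replicates differed beyond sampling noise (chi-square per degree of freedom 5.70 to 27.6). Promoters come from RefSeq (GRCm38.p6); as 71.4% of tested genes matched an entry, below 80%, shares of called and tested genes with a motif were not compared. Some items are not reported here.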

Additional observations from a re-analysis of the deposited data

Results flagged for a closer look

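Single libraries stood apart from the other 3 of their group in 10 of 236 groups of 4 values checked with Dixon's criterion; chance flags about 1 in 20 groups. Knockout 4 stood apart for S100a8 (577.4 CPM), S100a9 (971.8 CPM), Ngp (741.2 CPM) and the sum of the neutrophil markers (4048 CPM), and was low for Il16 (170.1 CPM). Knockout 3 was high for Cd63 (140.7 CPM) and Gabarap (125.5 CPM) and low for Sema6d (2.675 CPM). Among the wild-type libraries, wild type 2 was high for Zfp943 (34.38 CPM) and wild type 3 for Hbb-bt (5.01 CPM).

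For 16 named genes the log2 fold change at day 35 differed from that in naive mice by the test of the difference (edgeR's quasi-likelihood test). The difference was 3.26 for Igf1, 1.925 for Lpl, 7.598 for Apoc4, 1.461 for Csf1, 3.705 for Colec12 and 3.337 for Gpx3. For the stress and signalling genes Gadd45b and Nfkbia it was 1.677 and 1.074, for Gpx1 1.149, for Myh10 1.421 and for Cxcr4 3.473. It was negative for Slc40a1 (-0.6737) and Ivns1abp (-0.7599). S100a8 (8.99) and S100a9 (8.212) are neutrophil markers, and Cx3cr1 (4.175) is the Cre locus, whose level was lower in naive knockout libraries.

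For 18 named genes it differed from that at day 21. The lipid, growth factor, scavenger receptor and lysosomal genes Igf1 (3.488), Lpl (2.456), Apoc1 (2.907), Clu (2.249), Csf1 (1.346), Colec12 (3.037) and Cd63 (1.082) had a more positive difference at day 35. So had Ank (1.948), Gadd45b (1.249), Nfkbia (1.113), Cd83 (1.407), Cacna1a (1.699) and Sqstm1 (0.661). Slc40a1 (0.6998), Upk1b (1.569) and Il16 (0.4852) were lower in the knockout by less at day 35 than at day 21. The globins Hbb-bt (8.396) and Hbb-bs (6.282) moved in opposite directions at the 2 days.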

How the results depend on the processing

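The count of 363 called genes (248 higher, 115 lower) was 723 (530 and 193) with DESeq2, which called 356 of the 363, and 559 (414 and 145) in a fit of the 8 libraries alone, which called 258 of them. It was 143 (93 and 50) with no filter on low counts, where 30273 genes were tested, and 170 (80 and 90) with wild type 3 moved. Upper-quartile factors gave 62 and library totals 63 lower genes, with 265 and 182 higher. Without 1 library the total ranged from 53 to 453, the higher genes from 42 to 259 and the lower from 11 to 194. No scaling moved the median of all genes by over 0.1. The difference from naive mice, 51 genes (33 higher), was 478 (376 higher) with DESeq2, 13 (7 higher) with wild type 3 moved and 9 to 74 (7 to 47 higher) without 1 library. The difference from day 21, 370 genes (258 higher), was 734 (493), 769 (487) and 176 to 517 (133 to 343) in the same fits. The cause of these shifts was not tested. The EAE score difference of 1.5 was 1.33 with wild type 3 moved and 1.42 to 1.58 without 1 library, where the smallest exact permutation p possible is above 0.05. Of 1781 values of single genes under alternatives, 1258 kept direction and side of the threshold, 486 lost and 26 gained a call and 11 reversed. Of the named genes not called in the main fit, the fit of the 8 libraries alone called Atg7, Itgax, Spp1, Gpnmb, P2ry12, Fn1, Apoc2, Uhrf1 and mt-Co1. The reversed values were -0.062 for Cx3cr1 without knockout 3 (up to 0.49 without another library), 0.12 for Tmem119 with wild type 3 moved and, for Trem2, 0.012 with DESeq2 or RLE factors, a smaller value with upper-quartile factors (0.0053) or the 8 libraries alone (0.0086), 0.18 with wild type 3 moved, and 0.020, 0.092, 0.12 and 0.023 without knockout 2, knockout 4, wild type 3 or wild type 4 (range without 1 library -0.12 to 0.12).

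Libraries of the 2 groups share replicate numbers and i5 indexes. Deviations of same-numbered libraries correlated at -0.184, -0.0441, -0.016 and 0.0992, and only knockout 4 correlated best with its own number. These few values gave no sign of pairing but cannot decide whether same-numbered libraries share an effect. With the replicate block 343 genes were called, and 49 and 294 for the differences from naive mice and day 21. Genes with few counts, such as Mamdc2 (43 counts against 6), are limited by depth.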
